A study of Mus musculus with 6 samples.

Results

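The expression of 10 heat shock chaperone genes was examined in RNA sequencing data of mouse pancreatic tumours and normal mouse pancreas: Hspa1a, Hspa1b, Hspa8, Hsph1, Dnajb1, Hsp90aa1, Hspb1, Hspb8, Cryab and the gene of their transcription factor, Hsf1. They were chosen by name from the 27179 genes of the count files, with earlier results of these data known. Shares of all genes set beside their counts are thus a reference only. All 10 passed the filter on low counts and were tested. The 6 samples formed 3 groups of n = 2. H7 tumours grew from PANC02-H7 cells and UNKC tumours from UN-KC-6141 cells, both mouse pancreatic carcinoma lines, and C57BL/6 mice received the cells by surgery into the pancreas, from which tumours were taken after 20 days. Normal pancreas was the whole organ of C57BL/6 mice. No mouse was treated, and the sex and age of the mice and whether the replicates were separate animals are not stated, so p-values measure the spread between these samples, which may be technical. Each tumour group is 1 injected cell line, and a tumour sample also holds the cells of the host.

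Heat shock proteins are molecular chaperones, which keep other proteins from misfolding or clumping. HSP70 proteins bind unfolded stretches in a cycle of ATP use that HSP40 partners start and HSP110 proteins reset, HSP90 finishes the folding of kinases and receptors, and the small heat shock proteins hold unfolded proteins without ATP. The transcription factor HSF1 switches on the inducible members when proteins unfold, through heat shock elements, inverted repeats of the bases GAA, in their promoters. The exocrine pancreas makes large amounts of secreted enzyme, whose folding is mostly the work of other chaperones inside the endoplasmic reticulum.

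Promoters of the members are shown because HSF1 acts there and because those of Hspa1a and Hspa1b are almost the same. Of the 10 genes, 6 had an entry in the RefSeq promoter table (GRCm38.p6, 250 bases before to 50 after a start site). The entries below are printed 5′ to 3′ on the strand of the gene, and capitals mark each match to GAANNTTC or TTCNNGAA, motifs that each read the same on both strands and can overlap each other.
Hspa1a, chr17:34972107-34972406, minus strand: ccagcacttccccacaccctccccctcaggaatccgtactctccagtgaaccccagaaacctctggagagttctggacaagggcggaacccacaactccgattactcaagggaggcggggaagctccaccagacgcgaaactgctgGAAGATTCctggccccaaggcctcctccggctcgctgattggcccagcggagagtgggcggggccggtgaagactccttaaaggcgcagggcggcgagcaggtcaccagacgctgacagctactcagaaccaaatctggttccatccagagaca
Hspa1b, chr17:34959189-34959488, minus strand: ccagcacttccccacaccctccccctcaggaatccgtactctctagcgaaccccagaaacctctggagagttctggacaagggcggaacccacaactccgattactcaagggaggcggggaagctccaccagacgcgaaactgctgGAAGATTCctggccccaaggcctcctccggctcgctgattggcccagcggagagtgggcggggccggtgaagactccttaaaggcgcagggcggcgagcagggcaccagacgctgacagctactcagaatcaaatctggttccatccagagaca
Hspb1, chr5:135887669-135887968, plus strand: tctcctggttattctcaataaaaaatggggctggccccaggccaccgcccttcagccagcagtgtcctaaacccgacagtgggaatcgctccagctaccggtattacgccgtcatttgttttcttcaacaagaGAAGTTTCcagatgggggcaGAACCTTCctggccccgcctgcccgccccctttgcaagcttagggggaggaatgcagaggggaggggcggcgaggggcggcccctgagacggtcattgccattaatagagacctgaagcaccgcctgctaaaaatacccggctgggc
Hsph1, chr5:149636287-149636586, minus strand: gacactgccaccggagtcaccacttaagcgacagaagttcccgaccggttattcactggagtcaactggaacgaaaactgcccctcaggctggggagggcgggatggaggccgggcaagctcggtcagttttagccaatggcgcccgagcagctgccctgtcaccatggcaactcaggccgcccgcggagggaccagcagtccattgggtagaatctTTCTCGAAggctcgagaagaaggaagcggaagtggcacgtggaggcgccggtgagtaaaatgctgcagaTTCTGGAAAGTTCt

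The promoters of Hspa1a and Hspa1b differed at 4 of 300 bases and held the same match 104 bases before the start. The Hspb1 promoter held matches that began 117 and 97 bases before the start, and that of Hsph1 held 3 matches, among them an overlapping pair after the start that made up 1 run of 3 alternating units. Hspb8 had 1 match just after its start, and neither entry of Dnajb1 held one. At least 1 of these motifs stood in the promoters of 5 of the 6 genes. It also stood in 15.1% of the 32851 promoter entries counted, which left out 1 chromosome that holds no member. A gene can have more than 1 entry. Such a run of 3 alternating units, starting with either triplet, stood in 0.603% of these entries and in Hsph1 among the members. A match describes the letters of these windows and does not show binding.

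The tumour libraries were much deeper in these genes than the normal ones. The 10 genes held 25950 and 34145 reads in H7 tumours, 28407 and 29157 in UNKC tumours, and 250 and 333 in normal pancreas. Total reads in genes ran from 33332516 to 40507546 in the tumours, against 8204225 and 12077320 in normal pancreas, where ribosomal RNA took 85.0% and 86.4% of them. Levels below are CPM, counts scaled to effective library sizes (TMM), and the median log2 fold change of all tested genes was then 0.34 for H7 tumours and 0.42 for UNKC tumours against normal pancreas. Scaling by total counts moved these medians to 3.61 and 3.77 and made all 10 members higher in both tumours. With that scaling 13234 (H7) and 13811 (UNKC) of all 16306 tested genes were called in either direction. Fold changes and tests below are against 0, and the median of all genes is given as a reference. With TMM, 7 of the 10 members in H7 and 8 in UNKC tumours lay above that median. The H7 count takes Hspb1, which had no read in normal pancreas, at its fitted value. Against a floor of 3 read pairs over both normal libraries its H7 fold was 0.314, which lies below the median. The labelled tissues fitted their markers: the summed level of 8 acinar cell markers ran from 4.02 to 36.5 CPM in the tumours and was 11146 and 11517 CPM in normal pancreas. Muscle transcripts set the tumour replicates apart: 12 skeletal muscle markers summed to 10.7 and 712 CPM in H7 replicates 1 and 2 and to 1.97 and 2754 CPM in UNKC replicates 1 and 2, against 8.79 and 3.82 CPM in normal pancreas.

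In H7 tumours 5 of the 10 genes were higher than in normal pancreas, against 29.6% of all tested genes, and none passed the edgeR test as lower, against 21.9% (51.5% in either direction). The 5 were Hspa8, Hsp90aa1, Hspa1b, Hsph1 and Dnajb1. In UNKC tumours 6 of the 10 were called (48.4% of all genes): 5 were higher (29.1% of all genes), namely Hspa8, Hsp90aa1, Hspa1b, Hspa1a and Hspb1, and Hsf1 was lower (19.3% of all genes). The median log2 fold change of the 10 genes was 1.29 in H7 tumours (1.04 with Hspb1, which had no read in normal pancreas, at its bound) and 1.70 in UNKC tumours with or without that bound. Between the tumours, Hspa1a and Hspb1 were lower in H7, against 11.1% of all genes (18.2% in either direction). The edgeR test called no member higher, against 7.06% of all genes, where DESeq2 called 4 higher, against 16.7% of all genes. Both comparisons against normal pancreas share its 2 libraries. In these bulk samples a lower level may mean fewer cells of a type or less RNA per cell, and the measurement cannot tell them apart.

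**Figure D1:**
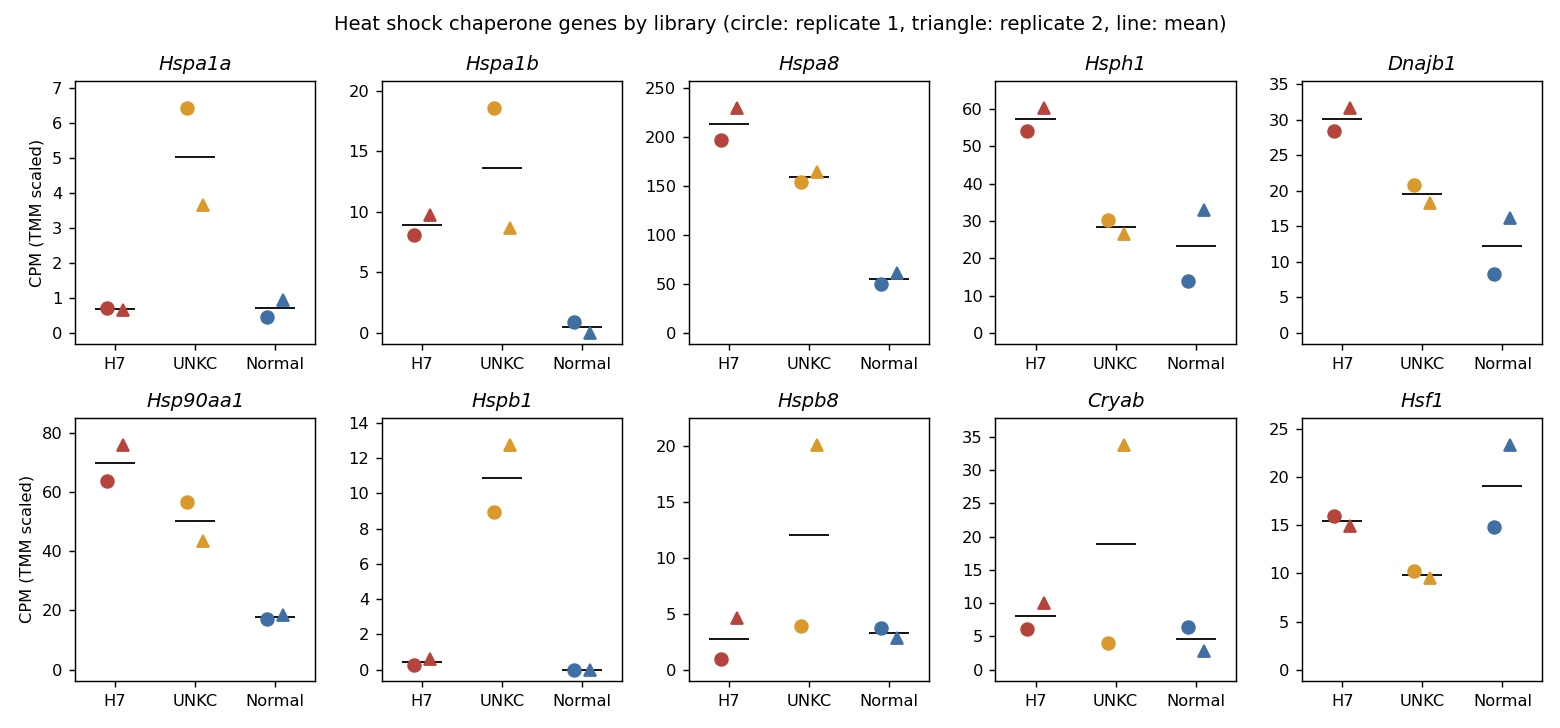
Level of each of the 10 genes in CPM (vertical axis, linear, with a scale of its own for each gene that starts just below 0) in H7 tumours, UNKC tumours and normal pancreas; circles are replicate 1, triangles replicate 2 and lines the mean of both. Hspa8 and Hsp90aa1 stand higher in all 4 tumour libraries than in both normal ones, Hspb1 is near 0 outside UNKC tumours, and Hspb8 and Cryab are high in UNKC replicate 2.

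The constitutive HSP70 was the most abundant of the set. Hspa8 (gene ID 15481, chromosome 9, 40801276 to 40805202, GRCm38) encodes HSC70, the HSP70 of unstressed cells, which folds new proteins and strips clathrin coats. It stood at 197 and 230 CPM in H7 tumours, at 155 and 165 CPM in UNKC tumours, and at 49.98 and 61.1 CPM in normal pancreas. Every tumour library was above both normal libraries. The log2 fold change was 1.94 ± 0.16 (SE) in H7 tumours (edgeR adjusted p = 0.000336) and 1.52 ± 0.16 in UNKC tumours (edgeR adjusted p = 0.000739). H7 tumours were 0.42 ± 0.15 above UNKC tumours without passing the test (edgeR adjusted p = 0.114). Reads of this gene and of Hsp90aa1 were counted unevenly by the authors' 2 ways of counting: Hspa8 had 1.59 to 1.66 reads for each fragment of the comparison tables and Hsp90aa1 had 1.503 to 1.95, while the median over genes was 2.00. In fragments the fold changes of Hspa8 were 1.76 and 1.36, and both calls held. Small nucleolar RNA genes lie within Hspa8 on the same strand.

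Hspa1a (gene ID 193740, chromosome 17, 34969359 to 34972156) and Hspa1b (gene ID 15511, chromosome 17, 34956429 to 34959238) are neighbouring genes that encode nearly the same stress-inducible HSP70. Of the windows of 100 bases in the GENCODE transcript of Hspa1a, 47.1% also occur in Hspa1b, and 49.9% the other way round, so reads from those stretches cannot be assigned to 1 of the genes, and their split is uncertain. A further 564 bases of Hspa1a exons are shared with Gm20481 on the other strand, and whether counting used strand is not stated. The level of Hspa1b was 8.12 and 9.78 CPM in H7 tumours, 18.6 and 8.65 CPM in UNKC tumours, and 0.925 and 0 CPM in normal pancreas. All tumour libraries exceeded both normal ones, and the UNKC replicates differed 2.15-fold. Hspa1b rose in H7 tumours by a log2 fold change of 4.25 ± 0.97 (edgeR adjusted p = 0.00809) and in UNKC tumours by 4.85 ± 0.94 (edgeR adjusted p = 0.00411). Normal pancreas held only 1 fragment of it, so by counting the fold was 19.2 in H7 tumours (95% exact interval 3.43 to 758) and 29.3 in UNKC tumours (5.25 to 1158). Without normal replicate 1 the normal group had no Hspa1b read, and the fitted values of 12.19 and 12.79 are then no measure of size. Without normal replicate 2 they were 3.31 and 3.91, and without UNKC replicate 1 the UNKC value was 4.22.

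Hspa1a was called in UNKC tumours and not in H7 tumours. It stood at 0.709 and 0.642 CPM in H7 tumours, at 6.42 and 3.64 CPM in UNKC tumours, and at 0.463 and 0.954 CPM in normal pancreas. H7 and normal libraries overlapped, and both UNKC libraries lay above all others. In H7 tumours it did not pass the test against normal pancreas (log2 fold change -0.06 ± 0.83, edgeR adjusted p = 0.957), a difference whose sign turned when scaled by total counts (3.21, below the median of all genes). In UNKC tumours it rose by 2.83 ± 0.66 (edgeR adjusted p = 0.0111). Normal pancreas held 2 fragments, which puts the UNKC fold by counting at 5.28 (1.45 to 43.8), and that call was lost without normal replicate 1 (2.42, edgeR adjusted p = 0.0601). Without normal replicate 2 the UNKC value was 3.47. H7 tumours were below UNKC tumours by a log2 fold change of -2.89 ± 0.37 (edgeR adjusted p = 0.00356), which was lost without H7 replicate 1 (-2.95, edgeR adjusted p = 0.0624). Hspa1b did not pass that test (-0.60 ± 0.47, edgeR adjusted p = 0.439), and its sign turned without UNKC replicate 1 (0.05).

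The split of the pair can be read within a library, where the scaling drops out. Hspa1a took 7.57% of the 304 fragments of both genes in H7 replicate 1 (95% exact binomial interval 4.86 to 11.1) and 5.93% of 405 in H7 replicate 2 (3.83 to 8.69). In UNKC tumours it took 25.3% of 1123 fragments (22.8 to 27.9) and 29.1% of 522 (25.3 to 33.2). The H7 intervals lie below the UNKC intervals, which cover counting error only. Normal pancreas held 2 and 1 fragments, too few for a share. Summed into 1 gene, the pair was higher in H7 tumours by 3.03 ± 0.57 (9.63 against 1.17 CPM, edgeR adjusted p = 0.0053) and in UNKC tumours by 3.99 ± 0.55 (18.6 against 1.17 CPM, edgeR adjusted p = 0.00172). Between H7 and UNKC tumours the sum did not pass the test (-0.95 ± 0.34, edgeR adjusted p = 0.107).

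The partners of HSP70 were higher in H7 tumours. Hsph1 (gene ID 15505, chromosome 5, 149616843 to 149636498) encodes HSP105, an HSP110 protein that releases ADP from HSP70. Its level was 54.2 and 60.2 CPM in H7 tumours, 30.4 and 26.4 CPM in UNKC tumours, and 13.9 and 32.9 CPM in normal pancreas. The H7 libraries were above the rest, and the UNKC libraries lay between the normal ones, which differed 2.37-fold. Hsph1 rose in H7 tumours (log2 fold change 1.29 ± 0.36, edgeR adjusted p = 0.0267) and did not pass the test in UNKC tumours (0.28 ± 0.36, edgeR adjusted p = 0.547). The H7 call was lost without H7 replicate 1 (1.43, edgeR adjusted p = 0.0818), without H7 replicate 2 (1.24, edgeR adjusted p = 0.107), with upper-quartile factors (0.94, edgeR adjusted p = 0.0699) and in fragments (1.04, edgeR adjusted p = 0.0752). Without normal replicate 2 the H7 value was 2.08 and UNKC tumours gained a call (1.06, edgeR adjusted p = 0.0059). Without normal replicate 1 the UNKC value turned negative (-0.19, edgeR adjusted p = 0.338), as it did with upper-quartile factors (-0.08).

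Dnajb1 (gene ID 81489, chromosome 8, 83608175 to 83612653) encodes the HSP40 partner that hands unfolded proteins to HSP70. It stood at 28.4 and 31.6 CPM in H7 tumours, at 20.9 and 18.3 CPM in UNKC tumours, and at 8.33 and 16.2 CPM in normal pancreas. The groups did not overlap. The rise in H7 tumours was 1.29 ± 0.30 (edgeR adjusted p = 0.0128), lost without H7 replicate 2 (1.24, edgeR adjusted p = 0.0664), and 1.89 without normal replicate 2. In UNKC tumours the log2 fold change was 0.67 ± 0.30 without a call (edgeR adjusted p = 0.111), and one was gained without normal replicate 2 (1.26, edgeR adjusted p = 0.00456).

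Hsp90aa1 (gene ID 15519, chromosome 12, 110691036 to 110696395) encodes the inducible form of cytosolic HSP90. Its level was 63.8 and 76.0 CPM in H7 tumours, 56.6 and 43.6 CPM in UNKC tumours, and 17.1 and 18.6 CPM in normal pancreas. All tumour libraries were above the normal ones, which were close to each other. The gene rose by 1.97 ± 0.20 in H7 tumours (edgeR adjusted p = 0.000605) and by 1.49 ± 0.19 in UNKC tumours (edgeR adjusted p = 0.00166), with no call between the tumours (0.48 ± 0.18, edgeR adjusted p = 0.121).

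**Figure D2:**
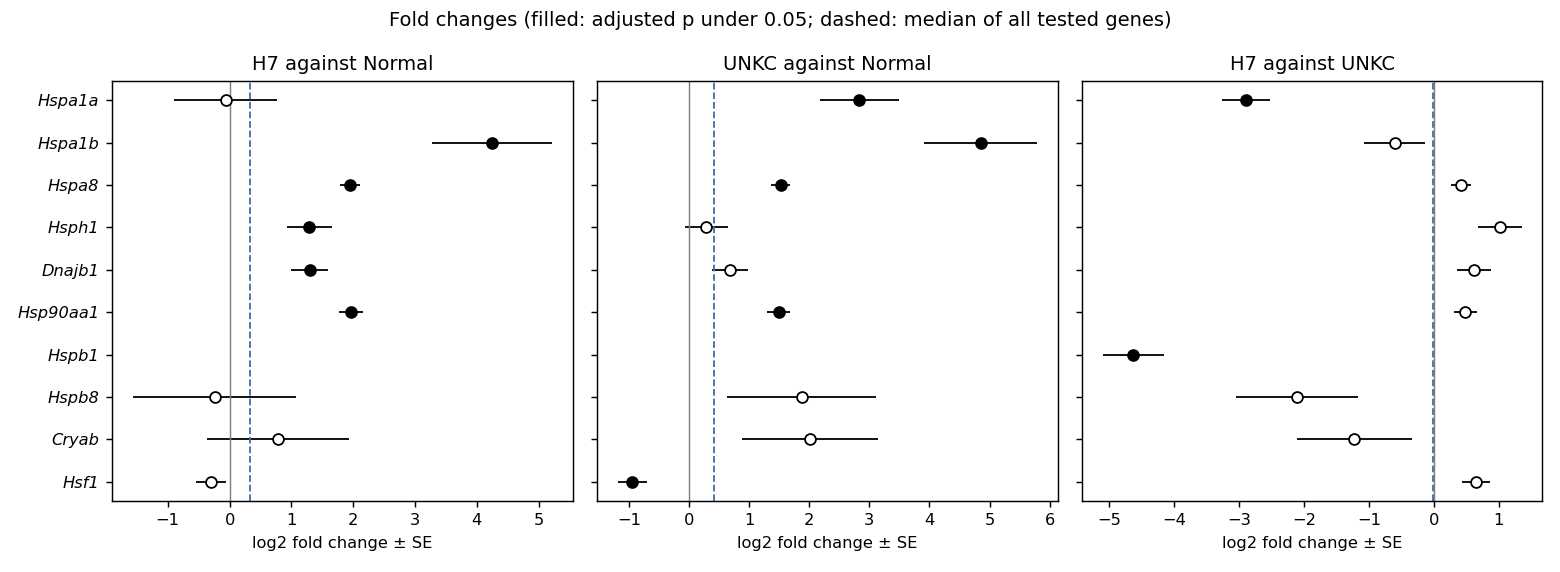
Log2 fold changes with SE (horizontal axis) of the 10 genes in H7 against normal, UNKC against normal and H7 against UNKC; filled points passed the edgeR test and the dashed line is the median of all tested genes. Hspb1 against normal is left out because normal pancreas had no read; Hspa1a and Hspb1 are the filled points between the tumours, at -2.89 and -4.63.

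Of the 3 small heat shock genes, Hspb1 was called in UNKC tumours, and Cryab and Hspb8 passed the test in no comparison. Hspb1 (gene ID 15507, chromosome 5, 135887919 to 135889563) encodes HSP25, the mouse form of HSP27, which holds unfolded proteins and binds actin filaments. It stood at 0.275 and 0.590 CPM in H7 tumours, at 8.92 and 12.7 CPM in UNKC tumours, and had no read in either normal library. The UNKC libraries were far above all others. It rose in UNKC tumours (edgeR adjusted p = 0.005), at least 7.65-fold against a floor of 3 read pairs over both normal libraries (1.41 CPM). The pooled H7 level of 0.442 CPM was under that floor, so no fold is given against normal pancreas (edgeR adjusted p = 0.209). Hspb1 was lower in H7 than in UNKC tumours by -4.63 ± 0.48 (edgeR adjusted p = 0.00471), a call lost without H7 replicate 1 (-4.17, edgeR adjusted p = 0.0539), and the value was -5.28 without H7 replicate 2. UNKC replicate 1, where the muscle markers were at 1.97 CPM, had 806 Hspb1 reads, against 19 and 46 in H7 tumours. Summed ductal and epithelial markers were highest in the UNKC libraries as well, with 411 and 393 CPM in H7 tumours, 1100 and 924 CPM in UNKC tumours, and 223 and 156 CPM in normal pancreas. None of the 6 was at 0 in any library, and the keratin genes Krt8 and Krt18 made up most of the tumour sums. Against normal pancreas the markers did not move as one: Cdh1, the adhesion protein E-cadherin, was lower in H7 tumours (23.7 against 59.5 CPM; -1.32 ± 0.23, edgeR adjusted p = 0.00451), and Epcam averaged 10.97 CPM in H7 tumours and 26.4 CPM in normal pancreas without a call. Fibroblast marker sums ranked the same way, with 2499 and 4145 CPM in UNKC tumours, 955 and 1799 CPM in H7 tumours, and 357 and 550 CPM in normal pancreas. Macrophage marker sums were instead highest in the H7 libraries. The part of any of these transcripts in the Hspb1 result was not tested.

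Cryab (gene ID 12955, chromosome 9, 50745951 to 50756636) encodes alpha B-crystallin, a small heat shock protein of the lens and of muscle. Its level was 6.11 and 10.05 CPM in H7 tumours, 4.07 and 33.8 CPM in UNKC tumours, and 6.48 and 2.86 CPM in normal pancreas. The groups overlapped, and UNKC replicate 2 stood 8.30-fold above replicate 1. No comparison passed the test, with log2 fold changes of 0.79 ± 1.15 in H7 tumours (edgeR adjusted p = 0.597), 2.01 ± 1.13 in UNKC tumours (edgeR adjusted p = 0.193) and -1.23 ± 0.89 in H7 against UNKC tumours (edgeR adjusted p = 0.417). Without UNKC replicate 2 the UNKC value was -0.18 and that between H7 and UNKC tumours 0.99, both with the sign turned, and without UNKC replicate 1 the UNKC value was called (2.87, edgeR adjusted p = 0.0125). An exon stretch of 252 bases is shared with Hspb2, a muscle gene on the other strand.

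Hspb8 (gene ID 80888, chromosome 5, 116408491 to 116422864) encodes a small heat shock protein that works with the cochaperone BAG3 to clear damaged proteins in muscle. It stood at 0.956 and 4.59 CPM in H7 tumours, at 3.92 and 20.1 CPM in UNKC tumours, and at 3.70 and 2.86 CPM in normal pancreas. In both tumours replicate 2 was the higher, 4.81-fold in H7 and 5.13-fold in UNKC. No comparison passed the test: -0.24 ± 1.32 in H7 tumours (edgeR adjusted p = 0.891), 1.87 ± 1.24 in UNKC tumours (edgeR adjusted p = 0.263) and -2.11 ± 0.95 in H7 against UNKC tumours (edgeR adjusted p = 0.191). In H7 tumours the sign turned without H7 replicate 1 (0.55). Between H7 and UNKC tumours leaving out 1 library gave values from -3.64 (without H7 replicate 2) to -0.49 (without UNKC replicate 2), none of them called.

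The 2 tumour libraries numbered 2 are the ones with muscle transcripts. Of the 12 skeletal muscle markers, none was at 0 in either; Acta1, skeletal actin and the most abundant of them, was at 143 CPM in H7 replicate 2 and 766 CPM in UNKC replicate 2, against 0.290 and 0.221 CPM in replicates 1. In normal pancreas it was at 3.70 and 0.954 CPM, and 5 and 7 of the 12 markers had no read. Among other small heat shock genes Hspb7, a heart and muscle member, was at 2.19 and 27.99 CPM in those 2 libraries, against 0.029 and 0.487 CPM in replicates 1, and at 0.925 and 0 CPM in normal pancreas. Hspb6, an HSP20 protein of muscle, was at 5.39 and 9.33 CPM in them, 2.79 and 1.69 CPM in replicates 1, and 5.55 and 2.86 CPM in normal pancreas. Some other marker sums were also higher in the tumour libraries numbered 2, and some were lower. The 7 fibroblast markers summed to 955 and 1799 CPM in H7 replicates 1 and 2 and to 2499 and 4145 CPM in UNKC replicates 1 and 2, against 357 and 550 CPM in normal pancreas. Within that list Pdgfra and Pdgfrb were lower in H7 replicate 2 than in H7 replicate 1. The sums of 6 endothelial markers were 41.8 and 59.7 CPM in H7 tumours and 79.2 and 125 CPM in UNKC tumours, against 100.4 and 107 CPM in normal pancreas. Macrophage markers went the other way, from 481 to 435 CPM in H7 and from 289 to 282 CPM in UNKC replicates 1 and 2. The ductal and epithelial sums were lower in replicate 2 of both tumours as well. The part of muscle and of these other transcripts in the levels of Cryab and Hspb8 was not tested. Without both libraries, Cryab stood at -0.22 and Hspb8 at 0.24 in UNKC tumours against normal pancreas, neither called in a fit that called no gene at all.

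**Figure D3:**
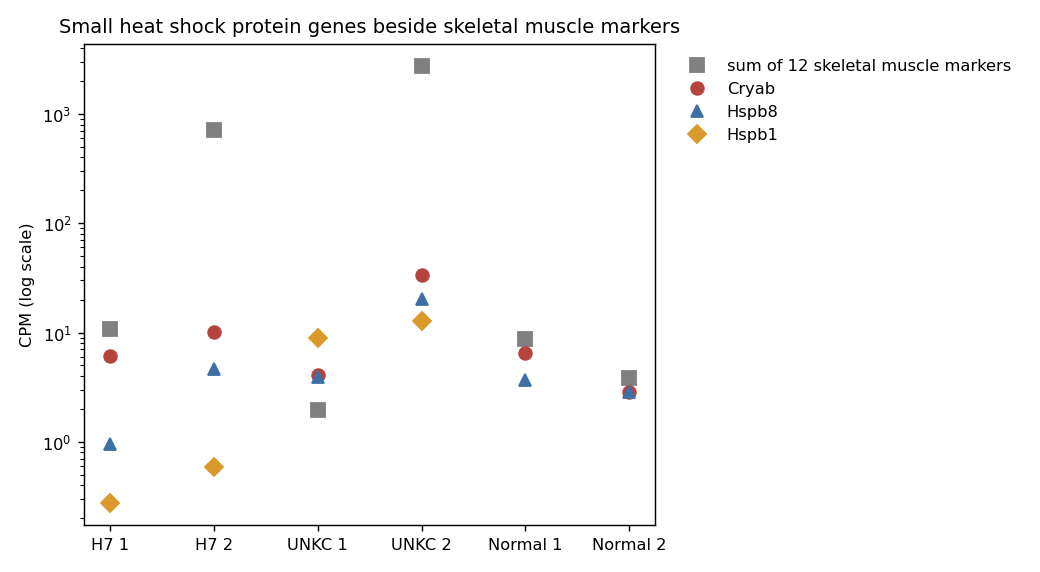
CPM on a log axis of Cryab, Hspb8 and Hspb1 and of the sum of 12 skeletal muscle markers in each of the 6 libraries (no point where a gene had no read). The muscle sum is highest in H7 replicate 2 (712 CPM) and UNKC replicate 2 (2754 CPM); Hspb8 is higher there than in replicate 1 of either tumour, and Hspb1 is high in both UNKC libraries.

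Hsf1 (gene ID 15499, chromosome 15, 76477362 to 76501155) encodes the factor that switches on the inducible chaperones; its activity is set mainly on the protein, not by the amount of its transcript. Its level was 16.0 and 15.0 CPM in H7 tumours, 10.3 and 9.48 CPM in UNKC tumours, and 14.8 and 23.4 CPM in normal pancreas. UNKC libraries were below all others, and H7 libraries lay within the normal range. Hsf1 fell by 0.95 ± 0.24 on the log2 scale in UNKC tumours (edgeR adjusted p = 0.0198), whereas scaled by total counts it stood at 2.37, below the median of all genes. The call was lost without any 1 of the tumour libraries, H7 libraries included, in fits that also called fewer of all genes in UNKC tumours against normal pancreas. In H7 tumours it was not called (-0.30 ± 0.24, edgeR adjusted p = 0.339), and the sign turned when scaled by total counts (2.94) and without normal replicate 2 (0.10). Without normal replicate 1 it was called lower in H7 tumours (-0.57, edgeR adjusted p = 0.0222).

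Between the tumours, Hspa8, Hsph1, Dnajb1, Hsp90aa1 and Hsf1 were all higher in H7 by 0.42 to 1.01 on the log2 scale, and none passed the edgeR test over 6 libraries. Hsph1 had the largest of these values (1.01 ± 0.34, edgeR adjusted p = 0.0966), with Dnajb1 at 0.62 ± 0.26 (edgeR adjusted p = 0.169) and Hsf1 at 0.65 ± 0.22 (edgeR adjusted p = 0.101). With DESeq2, 4 of the 5 were called higher (16.7% of all genes were), and in a fit of only the 4 tumour libraries the count was again 4 (14.4% of all genes). Both left out Hsp90aa1 (DESeq2 adjusted p = 0.0548). The fit over all 6 libraries takes its spread from normal pancreas as well. Leaving out normal replicate 1 or 2 likewise gave calls for Hspa8, Hsph1, Dnajb1 and Hsf1, in fits that also called more of all genes between the tumours.

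In the authors' deposited table, from DESeq2, the same 5 genes were called in H7 tumours at an adjusted p under 0.05, with log2 fold changes of 1.80 for Hspa8, 2.08 for Hsp90aa1, 3.23 for Hspa1b, 0.99 for Hsph1 and 1.06 for Dnajb1. In the authors' deposited table for UNKC tumours, Hspa1a was not called (1.37, adjusted p = 0.116), and Hspb1 was at 5.25 (adjusted p = 0.000486). Hsf1 stood there at -1.08 (adjusted p = 0.00054).

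The make-up of the set within a library does not depend on the scaling between libraries. On a per-length scale (reads per kilobase of gene), Hspa8 made up 58.1% and 57.5% of the 10 genes in H7 tumours, 52.2% and 45.5% in UNKC tumours, and 45.0% and 42.6% in normal pancreas. Hsp90aa1 came next in H7 tumours, with 13.9% and 14.0%. In UNKC replicate 2 that place was taken by Cryab with 16.6%, and Hsp90aa1 held 8.89% there against 14.1% in UNKC replicate 1. In normal pancreas Hsf1 was second, with 13.9% and 17.0%, against 4.92% and 3.90% in H7 tumours and 3.61% and 2.73% in UNKC tumours. Hsp90aa1 was at 0.239 and 0.244 of the per-length level of Hspa8 in H7 tumours, 0.271 and 0.195 in UNKC tumours, and 0.253 and 0.225 in normal pancreas, ranges that overlap. In fragments, tried after the data were seen, this ratio was 0.253 and 0.258 in H7 tumours, 0.283 and 0.205 in UNKC tumours, and 0.216 and 0.199 in normal pancreas, so the H7 and normal values no longer overlapped. Hsf1 was at 0.0847 and 0.0679 of the level of Hspa8 in H7 tumours, 0.0693 and 0.0601 in UNKC tumours, and 0.309 and 0.399 in normal pancreas, where both values were above those of all tumours. In fragments it was 0.0492 to 0.0677 in the tumours, against 0.273 and 0.321 in normal pancreas. The 3 small heat shock genes together held 3.71% and 6.14% in H7 tumours, 11.0% and 31.2% in UNKC tumours, and 14.2% and 5.87% in normal pancreas. With 2 samples a group an exact permutation test of a share could not reach the threshold, and none was run.

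**Figure D4:**
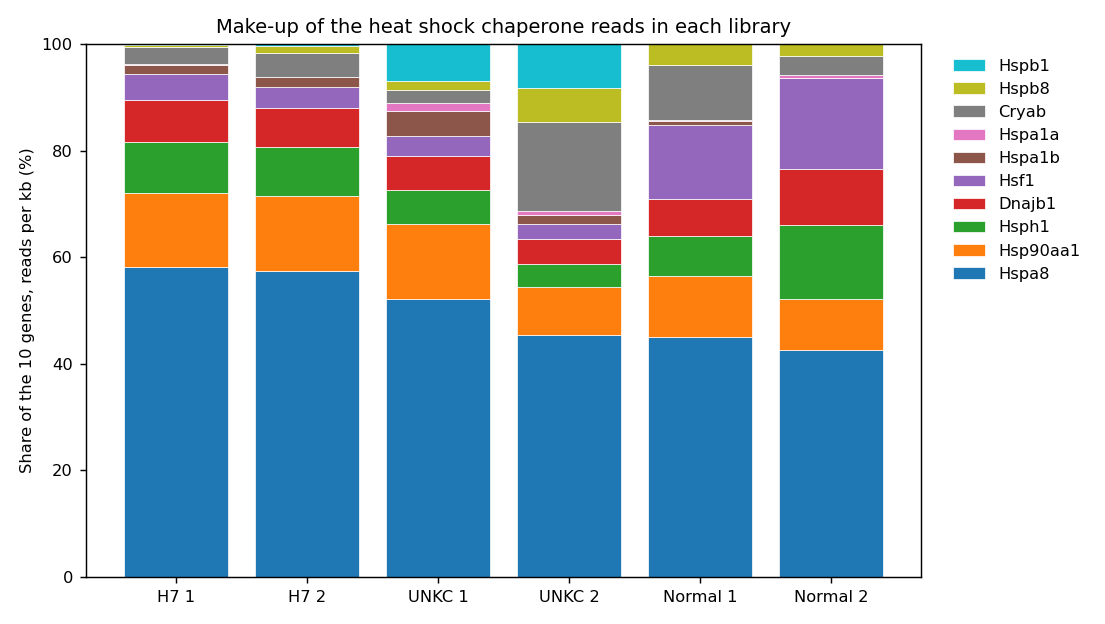
Share of each gene in the reads per kilobase of the 10 genes (vertical axis, percent) in each of the 6 libraries. Hspa8 is the largest part in every library; Hsf1 is larger in both normal libraries, and Cryab in UNKC replicate 2 (16.6%).

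Other chaperone genes give the setting. Of the 64 genes in 7 lists of chaperones, cochaperones and heat shock factors 61 were tested; 36 rose and 7 fell in H7 tumours, and 34 rose and 6 fell in UNKC tumours, while between H7 and UNKC tumours 1 was higher and 4 were lower in H7. Among all genes 29.6% rose and 21.9% fell in H7 tumours, 29.1% rose and 19.3% fell in UNKC tumours, and 7.06% were higher and 11.1% lower in H7 than in UNKC tumours. The counts followed the scaling: for H7 tumours total counts gave 53 rises and 1 fall and upper-quartile factors 29 rises and 9 falls. For UNKC tumours total counts gave 57 rises with no fall by the edgeR test and upper-quartile factors 25 rises and 7 falls. Among all 16306 genes total counts gave 13234 (H7) and 13811 (UNKC) calls in either direction, and upper-quartile factors gave 8133 and 7679. All 10 chaperonin genes, which encode the mitochondrial HSP60 ring, its lid and the subunits of the cytosolic folding chamber, rose in both tumours, with a median log2 fold change of 2.22 in H7 and 2.08 in UNKC tumours (9 in UNKC tumours with upper-quartile factors). Cct7, a subunit of that chamber, was at 2.81 ± 0.29 in H7 (edgeR adjusted p = 0.000689) and 2.55 ± 0.29 in UNKC tumours (edgeR adjusted p = 0.00102). Cct2, another subunit, was at 3.76 ± 0.21 in H7 tumours (edgeR adjusted p = 0.000148) and differed between the tumours, at 315 CPM in H7 and 85.4 CPM in UNKC tumours (log2 fold change 1.88 ± 0.18, edgeR adjusted p = 0.00229). Both other HSP90 genes rose in both tumours. Hsp90ab1, the constitutive HSP90 of the cytosol, stood at 1344 and 1464 CPM in H7 tumours, 1105 and 947 CPM in UNKC tumours, and 150 and 171 CPM in normal pancreas (log2 fold change 3.13 ± 0.17 and 2.67 ± 0.17, edgeR adjusted p = 0.000152 and 0.000184). Trap1, the HSP90 of mitochondria, rose by 0.90 ± 0.15 and 0.83 ± 0.15 (edgeR adjusted p = 0.00401 and 0.00577).

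Of 9 other HSP70 family genes 6 rose in each tumour and 1 fell in H7 tumours (4 rose in each with upper-quartile factors). Hspa4l, an HSP110 relative, was at 1.97 ± 0.23 in H7 (edgeR adjusted p = 0.00104) and 2.13 ± 0.23 in UNKC tumours (edgeR adjusted p = 0.000854). Hspa2, an HSP70 known from the testis, averaged 3.62 CPM in H7 and 12.04 CPM in UNKC tumours (log2 fold change -1.73 ± 0.40, edgeR adjusted p = 0.023). In normal pancreas Hspa2 had 1 fragment, against which the UNKC fold by counting was 25.6 (4.59 to 1012). Of 20 cochaperones of HSP70 and HSP90 12 rose in H7 tumours and 11 rose and 1 fell in UNKC tumours (9 rises and 1 fall in H7 and 8 rises and 2 falls in UNKC tumours with upper-quartile factors). Fkbp4, an immunophilin of steroid receptor complexes, rose by 1.76 ± 0.26 in H7 tumours (edgeR adjusted p = 0.00249). Bag1, an exchange factor of HSP70, averaged 36.4 CPM in H7 and 75.0 CPM in UNKC tumours, a difference of -1.04 ± 0.22 (edgeR adjusted p = 0.0263). In UNKC tumours Bag5 was the cochaperone that fell (-1.28 ± 0.36, edgeR adjusted p = 0.0283).

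The J domain proteins moved in both directions. Of 12 tested 4 rose and 4 fell in H7 tumours and 4 rose and 3 fell in UNKC tumours, against 29.6% and 21.9% and 29.1% and 19.3% of all genes. Scaled by total counts 11 and 12 were higher, where 13234 and 13811 of all 16306 genes were called in either direction. Dnaja1, the other main J domain partner of cytosolic HSP70, rose by 1.45 ± 0.21 in H7 tumours (edgeR adjusted p = 0.00232) and by 0.95 ± 0.21 in UNKC tumours (edgeR adjusted p = 0.0118). Dnajc7, which binds both HSP70 and HSP90, was at 25.2 CPM in H7 and 25.6 CPM in UNKC tumours, against 107 CPM in normal pancreas (-2.08 ± 0.22 and -2.06 ± 0.22, edgeR adjusted p = 0.000717 and 0.000813). Dnaja4 averaged 1.09 CPM in H7 and 8.91 CPM in UNKC tumours (-3.02 ± 0.49, edgeR adjusted p = 0.0107). Of the other heat shock factors and regulators 3 of 4 were tested. Hsf4, the factor of the lens, averaged 0.121 CPM in H7 and 0.544 CPM in UNKC tumours, against 8.72 CPM in normal pancreas (-6.13 ± 0.57 and -4.00 ± 0.50, edgeR adjusted p = 0.000481 and 0.00141). Hsbp1, which binds and restrains HSF1, rose by 2.38 ± 0.19 and 2.41 ± 0.19 (edgeR adjusted p = 0.000327 and 0.000323). Hsf2 did not pass the test and stood at 8.04 and 6.74 CPM in H7 tumours, 7.63 and 8.24 CPM in UNKC tumours, and 10.6 and 9.06 CPM in normal pancreas. Of 5 tested small heat shock genes beside the members, 1 rose and 1 fell in H7 tumours and 1 fell in UNKC tumours. Hspb11 was the one that rose (1.38 ± 0.36, edgeR adjusted p = 0.0204; named after its value was seen), a call lost with upper-quartile factors. The one that fell was Hspb3, averaging 0.077 CPM in H7 and 0.211 CPM in UNKC tumours, against 7.01 CPM in normal pancreas (edgeR adjusted p = 0.0212 and 0.0355).

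**Figure D5:**
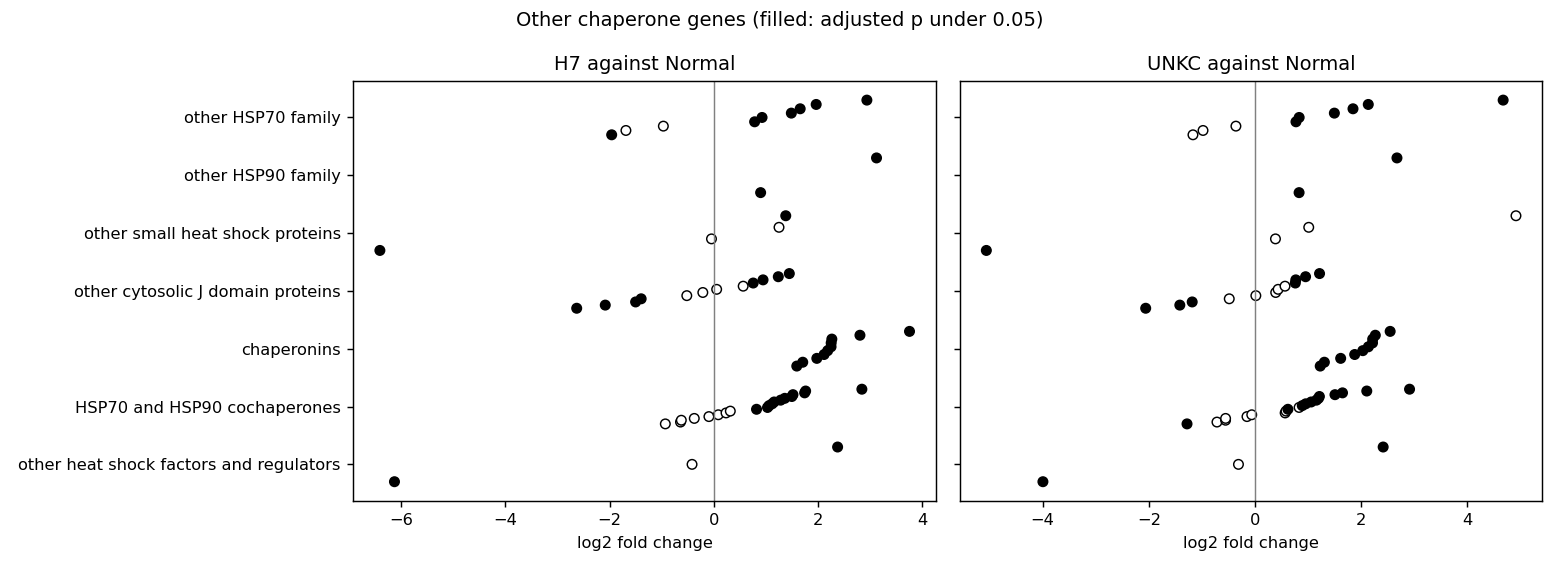
Log2 fold changes (horizontal axis) of the tested genes of 7 other chaperone lists, 1 point a gene, in H7 and UNKC tumours against normal pancreas; filled points passed the edgeR test, and genes with no read in normal pancreas are not drawn. All 10 chaperonin genes lie above 0 in both tumours, while J domain proteins lie on both sides.

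Immediate early genes, which respond within minutes to handling and to growth signals, were measured beside the inducible chaperones. The 9 genes summed to 202 and 176 CPM in H7 tumours, 307 and 303 CPM in UNKC tumours, and 114 and 65.8 CPM in normal pancreas; 4 rose and 1 fell in H7 tumours, and 4 rose in UNKC tumours. Between H7 and UNKC tumours 3 were lower in H7 (11.1% of all genes were), which became 2 with upper-quartile factors and 1 with DESeq2 size factors. Egr1 stood the other way without a call (0.84 ± 0.36, edgeR adjusted p = 0.179). The part of tissue handling in the levels of the inducible chaperones was not tested. The gene whose profile over the 6 libraries lay nearest to that of Hspa1a was Slc20a1, a phosphate transporter, at a root mean square distance of 0.22 in centred log2 CPM. It stood at 18.4 and 16.6 CPM in H7 tumours, 128 and 85.0 CPM in UNKC tumours, and 11.1 and 15.7 CPM in normal pancreas. Next came Wfdc3 and Gm17634 (0.29 and 0.31), which had no read in H7 tumours or normal pancreas. Nearest to Cryab were Pfkm, the muscle form of phosphofructokinase (0.33), Mef2c, a transcription factor of muscle and other tissues (0.36), and Fbxo32, a ubiquitin ligase of muscle (0.37).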

How the data were processed

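RNA-seq of 6 mouse samples was used. Per the submitters' processing notes, the tools were STAR, featureCounts and DESeq2 1.18.1, on the mm10 build; strand is not given in the sources used here. As deposited by the authors, the per-sample files hold raw read counts for 27179 gene IDs with both mates of a pair counted (median 2.00 reads for each fragment count of the tables). The authors' tables also hold TPM, computed from counts and gene length per the file headers, the authors' log2 fold changes and the authors' p-values; TPM were not analysed.

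Counts of all 6 libraries were tested with the edgeR 4.0.16 quasi-likelihood model in R 4.3.3 (16306 genes passing filterByExpr, TMM factors of 2.07 to 2.23 in tumours and 0.179 and 0.256 in normal pancreas, Benjamini-Hochberg over all tested genes, threshold 0.05). The SE is the fold change divided by the root of F. CPM are given per library, or as a mean where said. DESeq2 1.42.0 was an alternative, and the model was tested on simulated data. Python 3.11.15, pandas 2.3.3, SciPy 1.17.1 (exact binomial intervals and floors, counting error only) and matplotlib 3.10.9 were used. Names came from the tables for 16286 IDs and from RefSeq for 9355. Members and lists were chosen with earlier results of these data known. From each list, the largest called changes (at most 2 up and 2 down) of genes reaching 5 CPM could be named, and some of them are; Hspb6, Hspb7 and Hsf2 were chosen after their values were seen. The 14 alternatives concern scaling, filter, test, libraries, the replicate block and counting.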

Additional observations from a re-analysis of the deposited data

Results flagged for a closer look

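The effect of the tumour against normal pancreas differed between the 2 lines for 2 of the 10 genes, by the direct test of H7 against UNKC tumours, where 18.2% of all tested genes were called; 2 of 10 is near that share. Hspa1a, the inducible HSP70 gene, was lower in H7 tumours by a log2 fold change of -2.89 (edgeR adjusted p = 0.00356), with 0.709 and 0.642 CPM in H7 against 6.42 and 3.64 CPM in UNKC tumours. Hspb1, the small heat shock protein HSP25, was lower in H7 tumours by -4.63 (edgeR adjusted p = 0.00471), with 0.275 and 0.590 CPM in H7 against 8.92 and 12.7 CPM in UNKC tumours. Hspa1b, the near-identical neighbour of Hspa1a, did not pass this test (-0.60, edgeR adjusted p = 0.439). Of the Hspa1a windows of 100 bases 47.1% also occur in Hspa1b, so the split of reads between them is uncertain. Summed into 1 gene, the pair did not pass the test either (-0.95 ± 0.34, edgeR adjusted p = 0.107). The calls of Hspa1a and Hspb1 were both lost without H7 replicate 1, in a fit that also called fewer of all genes.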

How the results depend on the processing

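The members called were 5 in H7 and 6 in UNKC tumours against normal pancreas and 2 between H7 and UNKC tumours. Scaled by total counts, 10 were called higher in both tumours against normal pancreas, where 13234 (H7) and 13811 (UNKC) of all 16306 genes were called in either direction. Without both tumour libraries numbered 2, the counts were 0, 0 and 0, in a fit with 1 residual degree of freedom that called no gene of all. Between H7 and UNKC tumours 6 were called with DESeq2 and with 4 libraries only (where 5409 and 4815 of all genes were, against 2960), and 1 with Hspa1a and Hspa1b summed. Leaving out 1 library changed the number of members called in every comparison, and the number called among all genes changed as well. Between H7 and UNKC tumours both numbers were lowest without H7 replicate 1. The cause was not tested. Signs turned, without a call unless scaled by total counts. With total counts this held for Hspa1a (3.21), Hspb8 (3.09) and Hsf1 (2.94) in H7 tumours and Hsf1 in UNKC tumours (2.37). Hspa1a in H7 tumours stood at 0.44 with halved counts and 0.031 with no filter, and Hsph1 in UNKC tumours at -0.075 with upper-quartile factors. Without both libraries numbered 2, Cryab stood at -0.22 in UNKC tumours and 0.58 between H7 and UNKC tumours. Leaving out 1 library, the log2 fold change ranged from -0.47 to 0.58 for Hspa1a, -1.75 to 0.55 for Hspb8 and -0.57 to 0.10 for Hsf1 in H7 tumours, from -0.19 to 1.06 for Hsph1 and -0.18 to 2.87 for Cryab in UNKC tumours, and from -1.06 to 0.055 for Hspa1b, -3.64 to -0.49 for Hspb8 (not called) and -2.06 to 0.99 for Cryab between H7 and UNKC tumours. With the replicate block the counts were 5, 6 and 3, with Hspb8 gained between H7 and UNKC tumours (-2.08, adjusted p = 0.0204). Same-numbered deviations from the group means correlated at 0.53 for H7 with UNKC, -0.01 for H7 with normal and -0.02 for UNKC with normal. Tumour libraries of the same number thus shared part of their deviation. The main fit has no block because the labels do not say that the numbers pair samples. With 250 and 333 reads in the 10 genes, the normal libraries limit every comparison against them.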
